A study of Homo sapiens with 4 samples.

Results

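Wide stretches of RNA polymerase II (Pol II) with serine 5 phosphorylation (S5p) and no 53BP1 were described in MCF10A, a non-tumour human breast epithelial cell line. The regions were taken from the deposited list of S5p-enriched regions. A region was included if it lay on chromosomes 1 to 22, spanned 5000 bp or more and overlapped no region of the deposited 53BP1 list by even 1 bp. This rule gave 2399 of 61263 S5p regions, which covered 22.1 Mb. The comparison regions were the 2579 equally wide S5p regions that did overlap 53BP1. The study made chromatin immunoprecipitation libraries for 53BP1, S5p and Pol II phosphorylated on serine 2 (S2p), with an input, from cells in normal growth, with no treatment named. Each of the 4 samples was 1 library, so there is no replicate spread to weigh a difference against, and no test was made. The lists name no genes, and no gene is named for a region.

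Pol II carries a long tail of repeated residues that are phosphorylated in turn during transcription. Serine 5 phosphorylation is placed near the start of transcription, where Pol II often pauses, and serine 2 phosphorylation builds up as the enzyme elongates through a gene. S5p signal usually forms a sharp peak at gene starts, so a stretch of many kilobases is an unusual shape for it. 53BP1 is a chromatin reader of the DNA damage response that directs double-strand break repair and also binds p53.

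The width of a region, its S5p strength and the presence of 53BP1 chose the members or came from the same lists. Members were chosen by S5p width and missing 53BP1 overlap, so these values are given as description. Of all S5p regions 84.8% had no 53BP1, against 48.2% of those spanning 5000 bp or more and 88.0% of the narrower ones. Members had a median width of 7262 bp (quartiles 5900 and 10226 bp) and reached 61826 bp. For the comparison regions the median was 10653 bp and the maximum 125529 bp. S5p strength was read from the authors' fold enrichment of each region over their background. Its median was 6.70 in members (quartiles 5.11 and 9.65) and 41.7 in the comparison regions (27.8 and 60.5). The comparison median was exceeded by 7 members, and 11 comparison regions lay under the member median. Even so, the median member stood at the 76.2nd percentile of the whole S5p list.

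When the wide S5p regions were ranked by S5p fold and divided into 5 equal parts, members made up 99.3% of the weakest part and 94.1% of the next. They made up 42.5% of the third part, with folds from 10.8 to 27.6, and 4.72% and 0.402% of the strongest parts. Only the third part therefore held many regions of each kind, 423 members and 572 comparison regions. The plot of S5p fold against width shows both groups in this range.

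**Figure D1:**
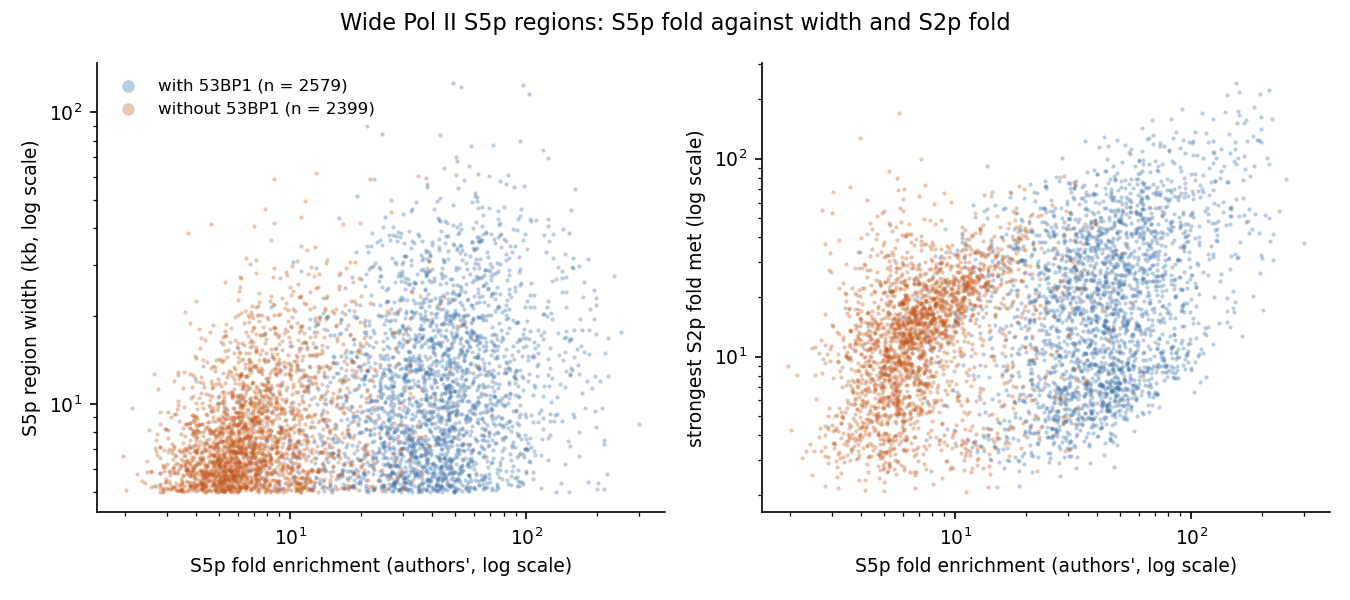
S5p fold against region width (left) and against the highest S2p fold met (right) for each wide S5p region, all axes logarithmic; orange points are the 2399 regions without 53BP1 and blue points the 2579 with it. Along S5p fold the medians are 6.70 and 41.7, with both groups well represented between 10.8 and 27.6, and width and S2p fold overlap widely; regions that met no S2p are not drawn on the right.

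The S5p summit, the strongest position within a region, lay nearer to the middle in members. Its median distance from the nearer edge was 28.5% of the region's width (quartiles 17.0 and 38.9%) in members and 13.5% (6.89 and 26.2%) in the comparison regions. In 293 members (12.2%) the summit lay in the outer 10% at either end, against 991 comparison regions (38.4%). It lay farther than 33.3% of the width from both edges in 926 members (38.6%) and 413 comparison regions (16.01%). A summit away from the edges was also common in narrower regions without 53BP1. In the 49557 S5p regions under 5000 bp without 53BP1 the median was 31.0%, with 9.59% of summits in the outer 10% and 44.5% farther than 33.3% from both edges. In the third part by S5p fold, the medians were 26.7% and 13.8%, but the median S5p folds there still differed (13.9 and 21.3). Matched further by fold and width within that part, the mean distances were 26.2% and 19.3%. That difference was 6.86 points (3.69 to 10.0). In the next stronger part, where 47 members remained, the medians were 12.4% and 13.8%, so the members of that part had their summits near an edge as the comparison regions did.

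**Figure D2:**
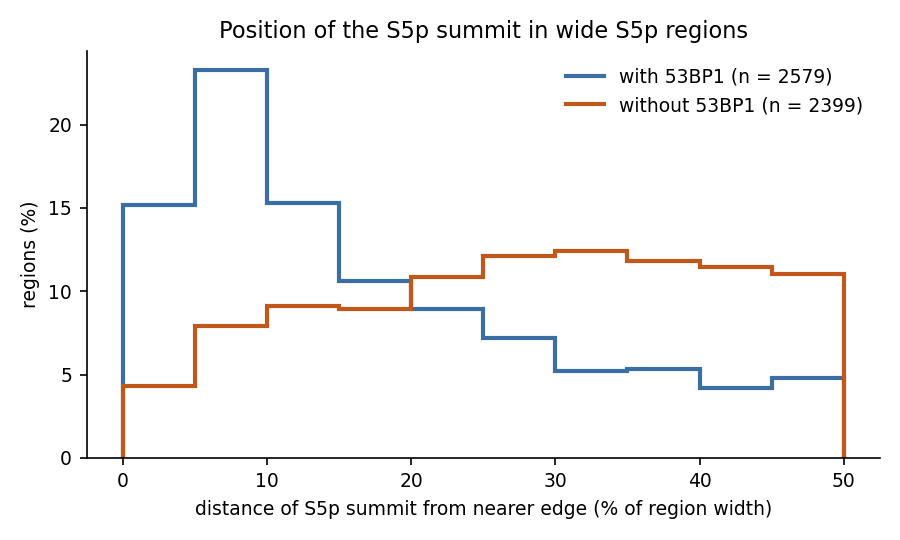
Distance of the S5p summit from the nearer edge as a percent of region width (0 is an edge, 50 the middle), as the percent of regions in steps of 5; orange is without 53BP1 and blue with it. The blue line is highest near the edge and the orange line is broad, with medians of 13.5% and 28.5%.

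S2p was not used to choose the regions. All intervals are 95% intervals that cover counting error only, with regions taken as independent, exact Clopper-Pearson for shares and exact binomial ranks for medians. An S2p region was met by 2326 of 2399 members (97.0%, 96.2 to 97.6), against 60.4% of S5p regions of any width. It was met by 2565 of 2579 comparison regions (99.5%, 99.1 to 99.7). The median member had 100% of its bases inside S2p regions (interval 99.9 to 100%, lower quartile 87.0%), and the median comparison region 91.7% (91.04 to 92.4%). Wide S5p was thus nearly always found together with the elongating form of Pol II, with 53BP1 or without it. A wider region has more room to meet S2p by 1 bp, so the 60.4% is not a share at equal width. From the narrowest to the widest of 3 width classes of members, 95.8%, 96.9% and 99.6% met S2p.

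The arrangement of the marks differed. Of the members, 1229 (51.2%, 49.2 to 53.2) lay entirely inside a single S2p region, against 31.1% of all S5p regions and 398 of the comparison regions (15.4%, 14.1 to 16.9). The 31.1% includes the many S5p regions that met no S2p. Among regions that met S2p, 1229 of 2326 members were inside, against 19067 of 36977 S5p regions of any width and 398 of 2565 comparison regions. Counted so, members stood near the whole list and apart only from the comparison regions. Those 1229 members had a median width of 7176 bp, within S2p regions of median width 17492 bp. A further 562 members (23.4%) were covered in part by 1 S2p region, 535 (22.3%) met 2 or more and 73 (3.04%) met none. Comparison regions most often met 2 or more S2p regions (1219, 47.3%, 45.3 to 49.2). Members that met several S2p regions met weaker ones, with a median highest S2p fold of 5.85, against 15.2 for members inside a single region.

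S5p strength differs between the groups, so the S2p layout was also compared at equal S5p fold. In the third part, 194 of 423 members (45.9%, 41.04 to 50.7) and 77 of 572 comparison regions (13.5%, 10.8 to 16.5) lay inside a single S2p region. After further division of that part by S5p fold and width, the difference was 27.9 percentage points (20.1 to 35.6). The second part held 59 comparison regions, of which 42.4% (29.6 to 55.9) were inside, against 59.1% (55.9 to 62.3) of 937 members. In the part next to the strongest the shares were 17.0% (7.65 to 30.8) of 47 members and 13.8% (11.7 to 16.2) of 949 comparison regions, and these intervals overlapped. The weakest part held 988 members, of which 47.7% (44.5 to 50.8) were inside, and 7 comparison regions, with 28.6% (3.67 to 71.0). The strongest held 4 members, with 50.0% (6.76 to 93.2), and 992 comparison regions, with 16.4% (14.2 to 18.9), so neither end part could be compared closely. Over the 14 of 15 classes of fold and width that held both kinds (2399 members and 2415 comparison regions), the matched difference was 18.7 points (5.97 to 31.5). Weights followed members, so the 988 members of the weakest part were set against its 7 comparison regions. At a width limit of 7500 bp the matched difference over all classes was 8.69 points (-5.07 to 22.4). The difference also depended on where a region ends. When S5p regions under 1000 bp apart were joined, the rule gave a new set of 2914 members among the joined stretches. The share of these inside a single S2p region was 33.8% and the matched difference within the third part 12.2 points. Over all classes that difference turned to -10.4 points (-24.6 to 3.89). With only members 10000 bp or more from 53BP1, the matched difference was 16.5 points within the third part and 11.2 points (-2.33 to 24.8) over all classes.

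For the share that met S2p at all, the comparison at equal S5p fold and width was imprecise. The difference was 10.5 points over the same 14 classes, with an interval from -2.91 to 23.8, and it rested on 7 comparison regions in the weakest part. With S5p regions joined it was -0.488 points, and at a width limit of 7500 bp -0.973 points.

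**Figure D3:**
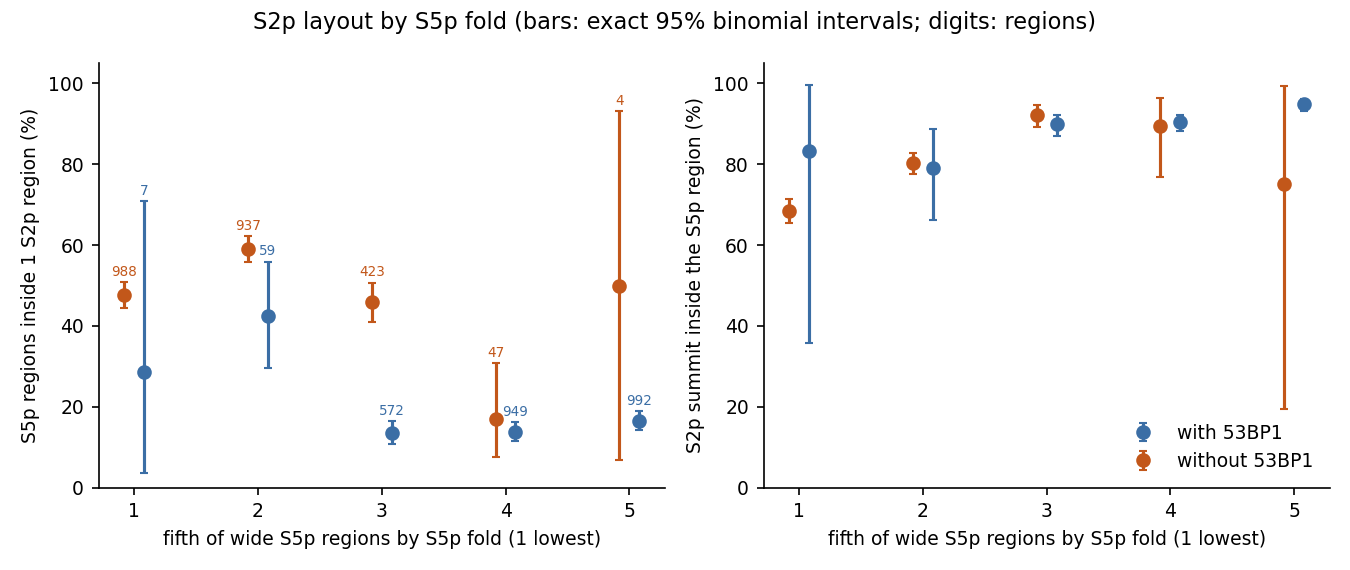
Percent of wide S5p regions that lie inside 1 S2p region (left) and, among those that meet S2p, percent with the S2p summit inside the S5p region (right), in 5 equal parts by S5p fold from 1 (weakest) to 5 (strongest). Orange is without 53BP1, blue with it, bars are exact 95% binomial intervals and the digits are numbers of regions; the groups stand apart in the middle part on the left (45.9% and 13.5%) and overlap there on the right.

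The S2p strength of members was set beside their S5p strength. The highest S2p fold met had a median of 12.7 (12.3 to 13.1), or the 93.4th percentile of the S2p list, and a maximum of 171. In comparison regions the median was 18.1 (17.2 to 19.3). The S2p percentile exceeded the S5p percentile in 2015 of 2326 members (86.6%, 85.2 to 88.0) and in 1191 of 2565 comparison regions (46.4%, 44.5 to 48.4). The members' share stood near that of the S5p regions under 5000 bp without 53BP1, at 21744 of 27098 (80.2%, 79.8 to 80.7). The comparison regions had a median S5p percentile of 95.6, against 76.2 in members. Percentiles were taken within each list, so this compares ranks and not amounts. In the third part by S5p fold, the median S2p fold was 21.9 in members and 13.5 in comparison regions. Matched further by fold and width, the mean S2p percentile there was 4.43 points higher in members, with an interval from -0.997 to 9.86 that includes 0. Over the 14 classes the members' mean differed by -3.61 points, that is, it was lower (-5.26 to -1.96, 2326 members and 2401 comparison regions). That interval is too narrow, because the narrowest class of the weakest part held a single comparison region that met S2p. A class with a single region added no error. The difference over all classes turned to 3.06 points (-6.55 to 12.7) at a width limit of 4000 bp. With 53BP1 within 1000 bp counted as overlap it was 3.79 points (-10.5 to 18.1), so no direction of S2p rank held throughout. At a width limit of 10000 bp the value within the third part turned to -0.767 points, and with S2p regions of −log10 q of 5 or more only it was 9.998 points.

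Within the members, wider regions had stronger marks. From the narrowest of 3 width classes (5000 to 6863 bp) to the widest (11513 to 61826 bp), the median S5p fold was 5.86, 6.71 and 9.02 and the median S2p fold 10.4, 12.9 and 17.4. The share that met 2 or more S2p regions was 20.1%, 20.7% and 30.1%. Across members, S5p fold and highest S2p fold had a Spearman rho of 0.380 (2326 regions), and S5p fold and width a rho of 0.312 (2399 regions). These are descriptions across regions that share 1 library for each mark.

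The S5p and S2p summits coincided in some members and lay far apart in others. The S2p summit lay inside the member in 1811 of 2326 (77.9%, 76.1 to 79.5), against 56.0% of S5p regions of any width that met S2p, and in 91.7% (90.5 to 92.7) of comparison regions. Most S5p regions of any width were narrower than members, which leaves less room for an S2p summit. Divided by S5p fold, the shares were 80.3% of members and 78.9% of comparison regions in the second part, 92.2% and 89.8% in the third and 89.4% and 90.3% in the fourth, with overlapping intervals in each. The difference over the matched classes was -10.8 points (-25.2 to 3.66), an interval that includes 0. Members filled on average 63.2% of the length of that S2p region, and comparison regions 81.2%. The summits were within 200 bp of each other in 531 members (22.8%, 21.1 to 24.6) and over 10000 bp apart in 292 (12.6%, 11.2 to 14.0). The corresponding shares of comparison regions were 26.2% (24.5 to 27.9) and 22.3% (20.7 to 24.0). In the 531 members with close summits, S5p and S2p folds followed each other with a rho of 0.612, against 0.119 in 671 such comparison regions. In the other 1795 members the rho was 0.299 and in the other 1894 comparison regions 0.448.

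Where the S2p summit lay outside the member, the same S2p region more often held 53BP1 elsewhere. Over all members that met S2p, 234 of 2326 (10.1%, 8.87 to 11.4) had 53BP1 in their strongest S2p region, against 7.19% of all S5p regions without 53BP1 that met S2p. The share was 157 of 515 (30.5%, 26.5 to 34.7) with the S2p summit outside and 77 of 1811 (4.25%, 3.37 to 5.29) with it inside. These S2p regions were longer where the summit was outside, with a median of 24517 bp against 10940 bp, and a longer region has more room for a 53BP1 region. The median member width was 6925 bp with the summit outside and 7490 bp with it inside. The rule kept 53BP1 out of that length, so this contrast cannot be told apart from the choice of regions. In the 234 cases the 53BP1 summit lay a median of 10604 bp from the member's S5p summit and 5665 bp from the S2p summit. The S2p summit was the farther from 53BP1 in 59 of them (25.2%, 19.8 to 31.3). The rule kept 53BP1 out of the member and so away from its S5p summit, while an S2p summit outside the member had no such limit. These distances and their order are therefore description only. With S5p regions under 1000 bp apart joined, which gave a new set of 2914 members, the share of 10.1% was 4.52%. Among the deposited members 10000 bp or more from 53BP1 it was 3.96%.

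53BP1 was often near. The median member lay 15802 bp from the closest 53BP1 region (quartiles 6961 and 33601 bp), and 837 (34.9%) had 53BP1 within 10000 bp, against 24.3% of S5p regions of any width without 53BP1. Only 27 members lay within 1000 bp, and 129 were 100000 bp or more away. The nearest other S5p region held 53BP1 for 409 members (17.0%, 15.6 to 18.6) and 462 comparison regions (17.9%, 16.5 to 19.4), against 13.3% of all S5p regions. That neighbour was close, at a median gap of 521 bp for members and 780 bp for comparison regions, where no gap in the list was under 352 bp. When S5p regions under 1000 bp apart were joined, 1981 members (82.6%) became part of a longer stretch, against 1505 comparison regions (58.4%). For 875 members (36.5%) that stretch held 53BP1, so for these the absence applies to the deposited region and not to the whole S5p stretch. The read depth is unknown, and a region without 53BP1 is a region where none was detected.

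The S2p layout of members varied with their distance from 53BP1, and was least enclosed at the extremes. The share inside a single S2p region was 56.8% (53.9 to 59.6) for the 1226 members 10000 to 50000 bp from 53BP1, and 56.04% (48.99 to 62.9) for the 207 at 50000 to 100000 bp. It was 18.5% (6.3 to 38.1) for the 27 members within 1000 bp and 40.0% (35.2 to 44.9) for the 408 at 1000 to 5000 bp. For the 402 at 5000 to 10000 bp it was 50.5% (45.5 to 55.5), and for the 129 farthest 35.7% (27.4 to 44.6). Between 92.6 and 97.3% met S2p in each of 6 bands of distance. The rank correlation of S5p fold with distance was -0.00503 across the 2399 members, a value that cannot show a rise at both ends. Median S5p fold was 8.63 within 1000 bp, 6.19 to 6.90 in the bands between, and 8.62 at 100000 bp or more.

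**Figure D4:**
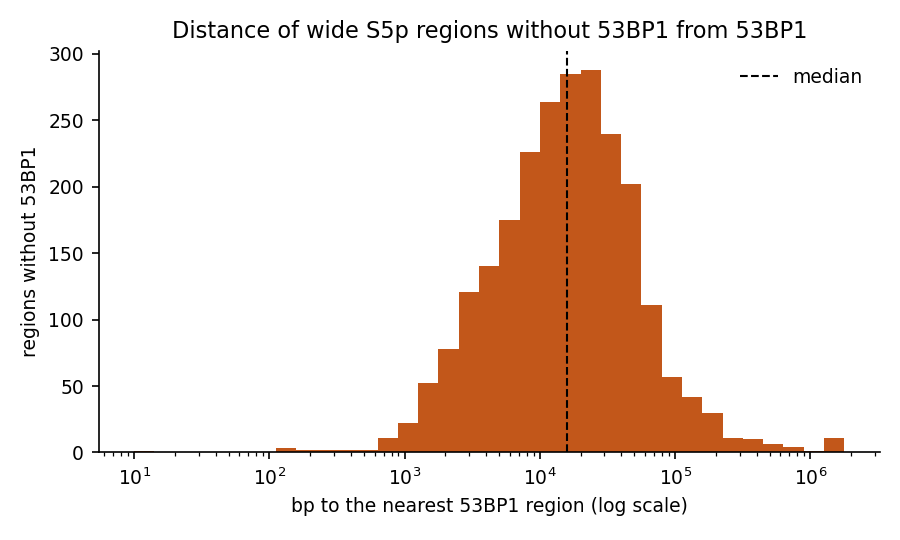
Number of wide S5p regions without 53BP1 by distance to the nearest 53BP1 region in bp (logarithmic axis); the dashed line is the median, 15802 bp. Most lie between a few kilobases and 100000 bp, and 27 lie within 1000 bp.

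The members with the highest S5p folds reached the range of 53BP1-bearing regions. The strongest (chromosome 1, 19270248 to 19283805 in hg19) reached an S5p fold of 62.7 but had S2p over only 24.3% of its length, in 5 separate S2p regions with a highest fold of 7.99. Its closest 53BP1 region was 40681 bp away. The next, on chromosome 9 at 140445763 to 140453046 (S5p fold 56.2), lay inside an S2p region with a fold of 18.6. Chromosome 11 at 403082 to 421731 was strong in both marks (S5p fold 54.5, S2p fold 108), and the summits were 79 bp apart. Its neighbour on the left had an S5p fold of 99.01 and did hold 53BP1, with a 53BP1 fold of 4.71. The member at 185677275 to 185695753 on chromosome 3, of S5p fold 50.9, lay 21188 bp from a 53BP1 region with a fold of 18.6. The other 6 of these 10 were on chromosomes 15, 22, 19, 12, 20 and 4, with S5p folds of 38.7 to 47.3. Across the 10, 3 lay inside a single S2p region, and none shared its strongest S2p region with 53BP1.

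The widest members were weaker in S5p than these. The 10 widest spanned 41856 to 61826 bp with S5p folds of 7.85 to 34.9 (median 12.2), and their S2p folds ran from 3.79 to 48.9. The widest lay on chromosome 19 at 39164450 to 39226275, where the S5p fold was 12.8 and the S2p fold 44.6. The next, on chromosome 7 at 130544082 to 130604458, had an S5p fold of 34.9 and was 99.8% covered by a 75201 bp S2p region, and 53BP1 was 41350 bp away. Unlike these, chromosome 2 at 192129147 to 192188379 spread over 59233 bp with S2p in 17 separate regions that covered 29.2% of it. Chromosome 2 at 143630411 to 143675759 was the most remote of the 10, at 1413850 bp from 53BP1, with 71.3% of its length in S2p. On chromosome 3 at 58119746 to 58166286, a member of 46541 bp lay wholly within an S2p region of 118629 bp with a fold of 48.9.

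The members on the strongest S2p regions were of 2 kinds, a division seen after their values were known. On chromosomes 11 (403082 to 421731), 1 (876676 to 892231), 19 (581153 to 587578) and 17 (48163656 to 48183335) the S5p and S2p summits were 2 to 199 bp apart, the S5p folds were 27.8 to 54.5, and the S2p region held no 53BP1. On chromosomes 16 (89606051 to 89621016), 3 (49741300 to 49746327), 19 (10244270 to 10252926), 1 (11130820 to 11137422), 6 (30546660 to 30559110) and 10 (120795362 to 120801229) the summits were 10231 to 32024 bp apart and the S5p folds 3.97 to 7.46. In these 6 the S2p region did hold 53BP1. The chromosome 16 member had the highest S2p fold of all, 171, from a 34376 bp S2p region that also spanned an S5p region with a fold of 111 and 53BP1 regions with folds of 13.1 and 12.7.

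**Figure D5:**
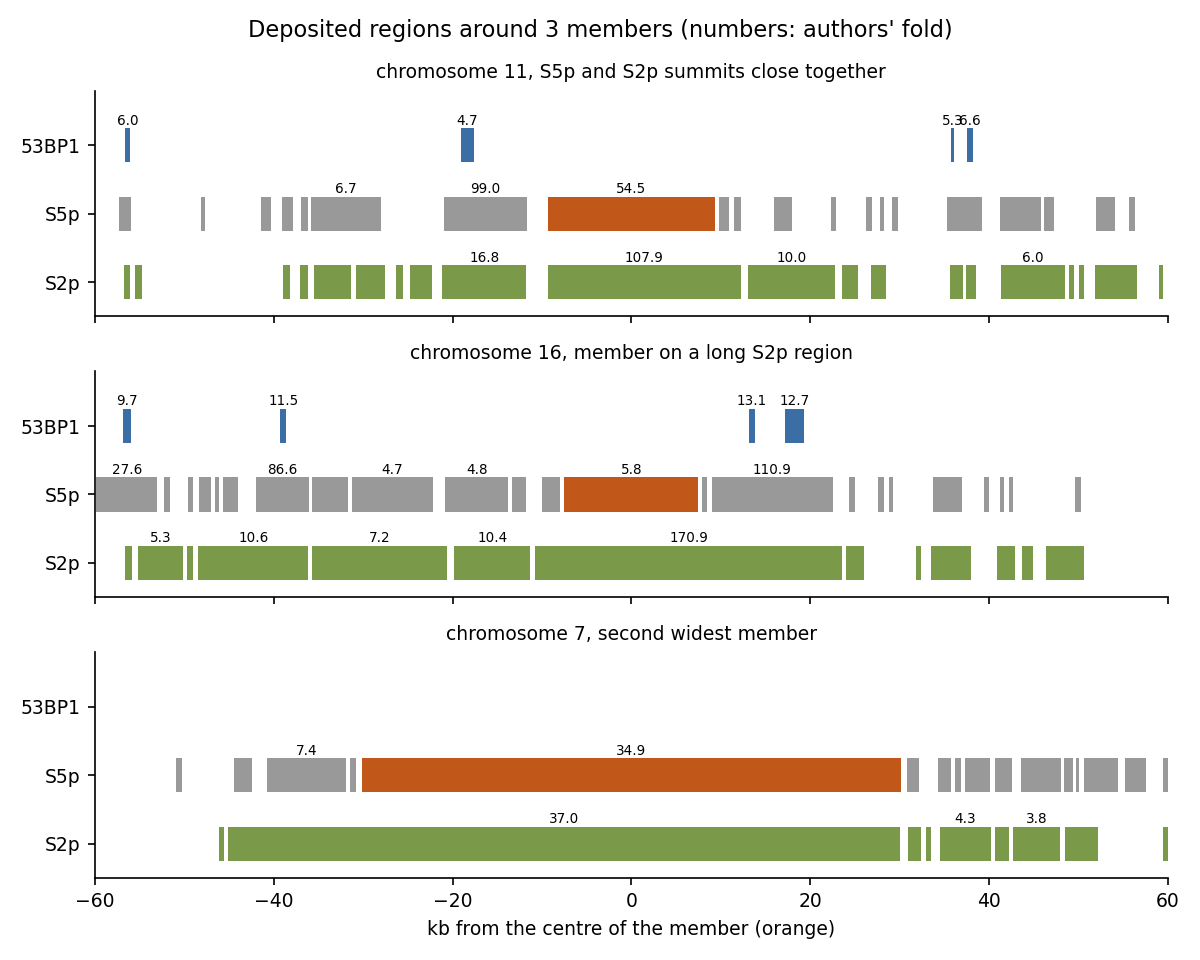
Deposited S2p, S5p and 53BP1 regions around 3 members (orange), as bars against distance from the member's centre in kb; the digits are the authors' folds for wider regions and for 53BP1. On chromosome 11 the member and the S2p region nearly coincide, on chromosome 16 a 53BP1-bearing S5p region shares the member's S2p region, and on chromosome 7 no 53BP1 lies within the window.

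Members without any S2p were fewer and weaker. The 73 had a median width of 6421 bp and a median S5p fold of 4.88, with a highest of 15.95 on chromosome 12 at 55325641 to 55331371, which lay 512600 bp from 53BP1. The next 4 by S5p fold had folds of 10.2 to 11.6. They were on chromosome 14 at 68930901 to 68936233, chromosome 4 at 157866637 to 157871730 and 41143251 to 41149201, and chromosome 7 at 139757715 to 139763142. All 5 were 5094 to 5951 bp wide and 67057 bp or more from 53BP1. The 73 as a whole lay nearer, at a median of 13443 bp (quartiles 7103 and 29747 bp), against 15802 bp for all members.

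At the width limit, the 5 narrowest members (5000 to 5006 bp) had S5p folds of 4.96 to 13.1, and the 5 widest regions under it without 53BP1 (4993 to 4998 bp) had folds of 3.22 to 5.76. At the limit set by 53BP1, the 5 members closest to it lay 11 to 168 bp away, with S5p folds of 12.7 to 19.7. The closest was on chromosome 21 at 44831414 to 44846799. The 5 comparison regions with the least overlap shared 59 to 214 bp with 53BP1 and had S5p folds of 6.59 to 23.9.

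Members were found on every chromosome from 1 to 22. They numbered 21 on chromosome 18 to 250 on chromosome 1, and their share of the wide S5p regions ran from 36.1% (29.3 to 43.4) on chromosome 6 to 58.9% (46.8 to 70.3) on chromosome 21, with a median of 48.9%. In each chromosome at least 92.8% of members met S2p, and 37.7 to 60.5% lay inside a single S2p region. The windows of 1 Mb with the most members were chromosome 17 from 75000001 to 76000000, with 13 of its 15 wide S5p regions and 6 53BP1 regions, and chromosome 19 from 4000001 to 5000000, with 13 of 20. There were 12 on chromosome 9 from 139000001 to 140000000, 12 on chromosome 19 from 2000001 to 3000000 and 11 in the window that follows on chromosome 19, from 3000001 to 4000000. Members occupied 908 windows, and 365 of these held a single member. In 9 of these windows, with 22 members (0.917%), there was no 53BP1 region, and of all S5p regions 1150 (1.88%) lay in windows without 53BP1.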

How the data were processed

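The authors deposited 1 list of enriched regions for each ChIP, in the 10-column narrowPeak layout. Per the submitters' processing notes, bcl2fastq 2.20.0.422 was used and positions are in hg19. Which aligner and peak caller were run, with which control, is not given in the sources used here. Each region has the authors' fold, a ratio over background, and deposited −log10 values of p and q. The deposited score was within 1 of 10 times the −log10 q-value in 100% of rows and was not used further. The summit offset was used as deposited. The lists held 11605 (53BP1), 62532 (S5p) and 54601 (S2p) rows, of which 11370, 61263 and 53422 on chromosomes 1 to 22 were used. The input was not analysed here. Depth is unknown, and a deeper library can give more and wider regions.

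Overlap was 1 bp or more. Widths are ends minus starts, and positions are printed 1-based. A region's S2p fold is that of the strongest S2p region met. For comparison at equal S5p fold, wide regions were divided into 5 classes by fold and 3 by width, and the third fold class further into 10 by fold and 3 by width. Differences were weighted by members. For means, a class with a single region of a kind added no error for that kind, which makes an interval too narrow. Their intervals are 1.96 standard errors, and classes that lacked members or comparison regions were left out, which kept 2399 members and 2415 of the comparison regions (164 left out). Regions named were the 10 members of highest S5p fold, of greatest width and of highest S2p fold, the 5 of highest S5p fold without S2p, the 5 nearest to 53BP1, 5 on each side of the width limit, the 5 comparison regions of least overlap and the 5 most populated windows of 1 Mb. The members, lists and comparisons were chosen with earlier results of these data known. The comparison within the third fold class, S2p layout and percentile matched over all classes, the joined stretches of members, summit distances between marks and the 53BP1 content of S2p regions were added after values were seen. Overlap and matching were tested on simulated data. These held many regions of both kinds in every fold class, so matching was not tested for end classes as sparse as those here. Computation used Python 3.11.15 with scipy 1.17.1, pandas 2.3.3 and numpy 2.4.6, and figures matplotlib 3.10.9.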

Additional observations from a re-analysis of the deposited data

How the results depend on the processing

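Of 147 values under other settings, 100 stayed within the interval of the reported value, 41 left it and 6 changed sign. The cause was not tested unless stated. Some of the 100 could not move, since the member share, summit position and 53BP1 on the neighbour do not use S2p. Others stayed only because the interval was wide. The matched S2p share of 10.5 points (-2.91 to 23.8) was 2.14 points at a width limit of 10000 bp. Members as a share of wide S5p regions (48.2%) were 52.6%, 38.4% and 31.5% at width limits of 4000, 7500 and 10000 bp. At those limits S2p was met by 95.9%, 98.4% and 99.2% and the median S2p fold was 11.3, 15.1 and 16.8. At 7500 and 10000 bp, 19.6% and 22.7% had 53BP1 on the nearest S5p region and the median summit position was 27.7% and 27.1%. At 4000 bp the S2p percentile matched over all classes differed by 3.06 points. At 7500 bp the matched S2p share differed by -0.973 points. At 10000 bp the median S2p cover was 99.8%, 47.7% lay inside a single S2p region (matched difference 17.9 points), the matched S2p percentile differed by -0.767 points and 8.41% had 53BP1 in their S2p region.

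With 53BP1 limited to a −log10 q of 5 or more, which adds members by construction, the member share was 54.0%, the share inside 48.3%, the cover 99.7%, the summit position 27.8%, 53BP1 on the neighbour 14.9% and in the S2p region 8.42%. With S5p so limited, 53BP1 on the neighbour was 23.9%. With S2p so limited, 92.8% met S2p, the median S2p fold was 13.1 and the matched S2p percentile differed by 9.998 points. When 50% of the region had to be covered, 88.8% met S2p. Joining S5p regions under 1000 bp apart gave a new set of 2914 members among the joined stretches, a member share of 45.8%. Of these 94.9% met S2p (matched difference -0.488 points), with cover 92.6% and S2p fold 9.45. The share inside was 33.8% (matched 12.2 points, over all classes -10.4 points), and the S2p percentile over all classes differed by -7.16 points. Their summit position was 26.0%, with 53BP1 on the neighbour in 21.9% and in the S2p region in 4.52%. With 53BP1 within 1000 bp counted as overlap, the S2p percentile over all classes differed by 3.79 points. Members 10000 bp or more from 53BP1, a setting chosen after seeing the data, gave 54.9% inside (matched 16.5 points) and 3.96% with 53BP1 in the S2p region, the last lowered by construction. Of the 34 members named for S5p fold, width, S2p fold or lack of S2p, 22 stayed members under all 9 settings that kept the deposited S5p regions, and the others were lost only to higher width limits. Annotation of members by gene starts was not run, since no hg19 annotation was at hand. No paired analysis was possible because no factor had more than 1 library.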

Other observations

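Chromosome X lay outside the rule used here. It had 82 S5p regions of 5000 bp or more, of which 37 (45.1%, exact 95% interval 34.1 to 56.5) met no 53BP1. Their median S5p fold was 9.53. S2p was met by 34 of the 37 (91.9%, 78.1 to 98.3), and 14 (37.8%, 22.5 to 55.2) lay inside a single S2p region.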
